A study of Mus musculus with 2 samples.

Results

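De novo lipogenesis, the making of fatty acids from acetyl-CoA in the cytosol, was followed through 8 genes taken by name from the gene table: the enzymes *Acly*, *Acaca*, *Acacb*, *Fasn* and *Me1*, the lipogenic regulator *Thrsp*, and the transcription factor genes *Srebf1* and *Mlxipl*. All 8 were found among the 34745 genes listed, and all 8 passed the minimum of 10 counts over both libraries, as did 13561 genes in all. Poly(A) RNA had been sequenced from liver of male mice aged 8 to 10 weeks, with 1 library per genotype, after 2/3 partial hepatectomy (2/3 PH), in which most of the liver is removed and the remnant regrows. By the study's text the tissue was taken on day 3. The genotypes were miR-182 KO, which by the study's text carries the knockout on a single allele and so keeps a normal copy in every cell, and wild type (WT). Food was freely available to the mice, and by the study's text all hepatectomies were done early in the morning. The number of mice behind a library and the hour of collection are not given in the sources used here. With 1 library per genotype no difference has a replicate check, no test between genotypes was made, and the intervals below cover counting error only.

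In the liver, glucose carbon leaves the mitochondrion as citrate, is cleaved to acetyl-CoA, carboxylated to malonyl-CoA and joined into palmitate by fatty acid synthase, with NADPH as the reductant. Insulin drives the pathway through SREBP-1c, a product of *Srebf1*, and sugar drives it through ChREBP, the product of *Mlxipl*, and both factors bind the promoters of several of the enzymes. The pathway is low on fasting and high on refeeding, and the regenerating liver passes through a phase of fat storage.

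The microRNA of the knockout allele, miR-182-5p, lies at chr6:30165962-30165986 on the minus strand of GRCm38.p6. Its mature sequence in RefSeq is shown because the seed, bases 2 to 8, in capitals, is what pairs with a target.
mmu-miR-182-5p: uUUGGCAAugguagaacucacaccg
The 7-base match to the seed, TTGCCAA, was looked for in the longest annotated 3′ UTR of each gene, which measured 597 bases in *Thrsp* to 2008 bases in *Fasn*, against a median of 1130 bases over 12503 genes. None of the 8 genes held it, while 12.0% of those genes did. The 8-base match TTGCCAAA was held by 4.98% of them. At that share a list of this length may well hold no match, so nothing is read from the count.

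The promoter windows, from 250 bases before to 50 after a RefSeq start on GRCm38.p6, are shown for *Fasn*, *Thrsp* and *Mlxipl*, which stand for the enzymes, the regulator and the factors. Capitals mark CCAAT (or its reverse complement ATTGG), the GC box GGGCGG (or CCGCCC) and the E-box CACGTG, searched on both strands.
*Fasn*, chr11:120824498-120824797, minus strand: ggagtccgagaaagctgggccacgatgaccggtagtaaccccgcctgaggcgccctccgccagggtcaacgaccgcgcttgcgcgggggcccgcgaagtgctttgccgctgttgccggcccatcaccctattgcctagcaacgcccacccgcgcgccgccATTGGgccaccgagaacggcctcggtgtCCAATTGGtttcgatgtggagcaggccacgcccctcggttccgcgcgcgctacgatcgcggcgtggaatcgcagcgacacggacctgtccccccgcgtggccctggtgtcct
*Thrsp*, chr7:97417501-97417800, minus strand: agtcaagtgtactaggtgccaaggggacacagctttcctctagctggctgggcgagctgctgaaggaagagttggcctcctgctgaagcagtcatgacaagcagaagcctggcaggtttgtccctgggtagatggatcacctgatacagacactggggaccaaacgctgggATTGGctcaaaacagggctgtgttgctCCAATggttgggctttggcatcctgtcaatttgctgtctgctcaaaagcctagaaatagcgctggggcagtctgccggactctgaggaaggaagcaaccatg
*Mlxipl*, chr5:135089640-135089939, plus strand: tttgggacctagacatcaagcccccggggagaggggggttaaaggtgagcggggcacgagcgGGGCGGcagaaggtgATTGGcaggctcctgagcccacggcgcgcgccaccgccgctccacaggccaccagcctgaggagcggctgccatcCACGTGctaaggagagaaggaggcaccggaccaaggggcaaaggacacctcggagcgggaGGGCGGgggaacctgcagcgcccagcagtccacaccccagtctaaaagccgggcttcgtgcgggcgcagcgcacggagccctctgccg
CCAAT stood 90, 62 and 59 bases before the start of *Fasn*, the last pair overlapping, and 79 and 52 bases before the start of *Thrsp*. The *Mlxipl* window held an E-box 98 bases before the start, a CCAAT at 173 bases, and GC boxes at 188 and 38 bases. RefSeq gave 12 windows for the 8 genes, some genes having several starts. CCAAT was in 8 of the 12, covering 7 genes (all except *Acaca*), and in 37.4% of 32851 promoters of the same length. A GC box was in 5 of the 12, in *Acly*, *Me1*, *Srebf1* and *Mlxipl*, and in 35.7% of all promoters. The E-box was in 1 of the 12 and in 7.15% of all promoters. The core of the sterol element, CACCCCAC, was in none of the 12 and in 2.87% of all promoters. A pair of exact E-boxes set 5 bases apart was in no promoter at all, so that search cannot set the 8 genes apart. These are matches of letters in short windows, and they say nothing of where SREBP-1c or ChREBP bound in these livers.

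Total counts were 13247497 for KO and 13163348 for WT, but the 13 protein-coding mitochondrial genes took 51.7% of the first and 31.0% of the second. Scaling by total counts therefore put the median of all genes at -0.60 on the log2 scale (KO over WT), whereas TMM, edgeR's trimmed-mean scaling, put it at 0.00. Log2 fold changes below are TMM-scaled unless said otherwise, and the FPKM, which the authors scaled by total counts, carry that shift. Over all genes, 1283 were at least 2-fold higher and 1348 at least 2-fold lower in the KO library.

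*Fasn*, *Me1*, *Acaca*, *Thrsp* and *Acly* were lower in the KO library than in the WT library, *Srebf1* differed little, and *Mlxipl* and *Acacb* were higher by TMM although lower by total counts. The median over the 8 genes was -0.47, against 0.00 over all genes tested. A change of scaling between libraries shifts all genes nearly alike, so that distance carries no separate evidence under total counts. No gene of the 8 reached a 2-fold change in either direction, a size that 19.4% of all genes reached (9.46% higher and 9.94% lower). At 1.5-fold, 2 of the 8 were lower and 0 higher, against 19.4% and 18.7% of all genes. The counting interval lay wholly below 0 for 5 of the 8 and wholly above 0 for 2, against 26.2% and 25.8% of all genes. That background includes genes with as few as 10 counts, whose intervals are wide, while each of the 8 had at least 205 counts in either library. The comparison thus reflects depth as well as change. The 2-fold background also depends on depth: with a minimum of 50 counts, 656 genes were higher and 730 lower of 10916 tested. By total counts 4 of the 8 were at least 2-fold lower and 0 higher, against 26.6% and 4.6% of all genes. In a bulk liver, fewer cells of a type and less RNA per cell cannot be told apart.

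**Figure D1:**
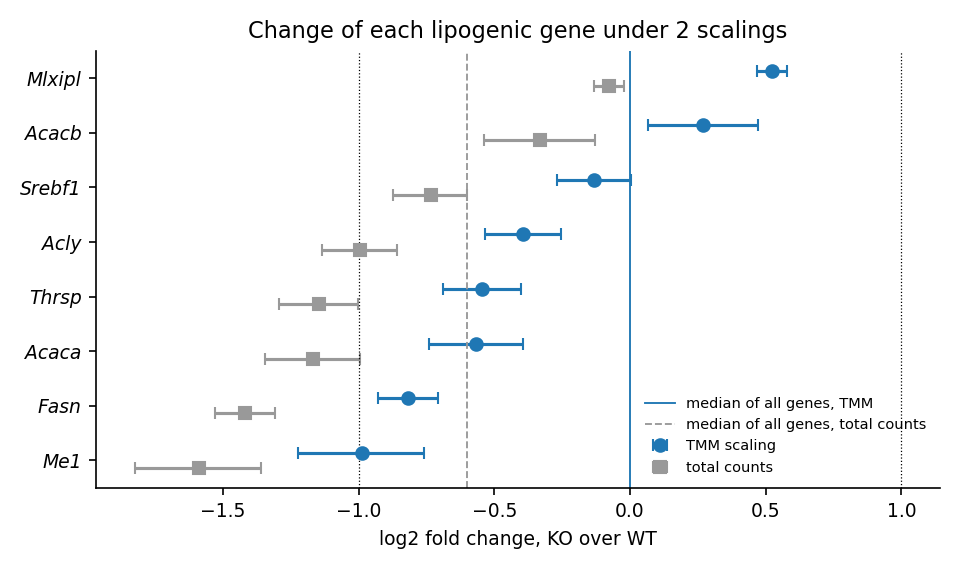
KO over WT log2 fold change of each of the 8 genes, with 95% counting intervals, after TMM scaling and after scaling by total counts (1 library per genotype). Dotted lines mark 2-fold. By TMM the values ran from -0.99 for *Me1* to 0.52 for *Mlxipl*, and by total counts, where *Acacb* and *Mlxipl* changed sign, all 8 lay below 0 and the median of all genes lay at -0.60.

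*Srebf1* (ENSMUSG00000020538, chr11:60199089-60222581, minus strand), whose product SREBP-1c switches on the lipogenic enzymes in response to insulin, had 708 counts in KO and 1171 in WT. The FPKM were 5.81 (95% counting interval 5.39 to 6.25) and 9.67 (9.12 to 10.2). After TMM scaling the levels were close, at 65.8 and 72.2 CPM (counts per 1e+06 scaled counts), and the log2 fold change of -0.13 had an interval of -0.27 to 0.00. Of all genes tested, 41.7% had a lower value, so *Srebf1* sat near the middle of the table. An exon of *Rai1* overlaps *Srebf1* on the opposite strand. *Rai1* had 111 counts in KO and 156 in WT, and whether reads were counted by strand is not given in the sources used here. The table has 1 row for the gene and does not separate SREBP-1a from SREBP-1c.

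*Mlxipl* (ENSMUSG00000005373, chr5:135089890-135138382, plus strand) codes for ChREBP, which carries the response to glucose and fructose. It had 5091 counts in KO and 5339 in WT, with FPKM of 43.1 (41.9 to 44.3) and 45.5 (44.3 to 46.7). The plain counts were thus nearly level, and the scaling decides the direction: the log2 fold change was 0.52 (0.47 to 0.58) by TMM and -0.08 by total counts. By TMM it was the highest of the 8, with 78.7% of all genes below it. Set against *Mlxipl* within each library, *Srebf1* had a ratio of 0.139 in KO and 0.219 in WT. The KO ratio was 0.634 times the WT ratio (0.572 to 0.702), a comparison that no scaling between libraries can move.

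*Acly* (ENSMUSG00000020917, chr11:100476353-100528000, minus strand), which cleaves citrate to give cytosolic acetyl-CoA, had 636 counts in KO and 1260 in WT. Its FPKM were 5.86 (5.42 to 6.34) and 11.7 (11.1 to 12.4). The KO library was lower, by -0.39 on the log2 scale (-0.53 to -0.26), or 0.761 times WT, and 27.0% of all genes were lower still.

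*Acaca* and *Acacb* code for the carboxylases that make malonyl-CoA. The product of *Acaca* works in the cytosol and feeds fatty acid synthase, while that of *Acacb* sits at the mitochondrial outer membrane, where its malonyl-CoA holds back the carnitine palmitoyltransferase that admits fatty acids for oxidation. *Acaca* (ENSMUSG00000020532, chr11:84129672-84401651, plus strand) had 392 counts in KO and 875 in WT, and FPKM of 1.46 (1.32 to 1.61) and 3.28 (3.07 to 3.50). Its log2 fold change was -0.57 (-0.74 to -0.39), with 20.1% of all genes lower. *Acacb* (ENSMUSG00000042010, chr5:114146535-114250761, plus strand) had 359 counts in KO and 449 in WT, and FPKM of 2.08 (1.87 to 2.30) and 2.61 (2.38 to 2.87). Its log2 fold change was 0.27 (0.07 to 0.47) by TMM and -0.33 by total counts, so that its direction also rests on the scaling. The balance between the carboxylases does not: there were 0.916 *Acacb* counts per *Acaca* count in KO and 0.513 in WT, a ratio of ratios of 1.78 (1.48 to 2.15). *Acaca* is uncertain in 1 respect, since 52.3% of the 51-base words of its longest transcript recur in the processed pseudogene *Gm5182*, which was not analysed here, so that counting could have split its reads.

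*Fasn* (ENSMUSG00000025153, chr11:120805846-120824547, minus strand) codes for fatty acid synthase, which builds palmitate. It had 920 counts in KO and 2443 in WT, the most of the 5 enzymes in both. The FPKM were 4.99 (4.67 to 5.32) and 13.3 (12.8 to 13.9). The log2 fold change was -0.82 (-0.93 to -0.71), or 0.568 times WT, and 13.1% of all genes were lower. *Fasn* also stood lower against *Acly*, the step before the carboxylases, at 1.45 and 1.94 counts per *Acly* count, a ratio of ratios of 0.746 (0.659 to 0.844). Its transcript, at 10050 bases, is among the longest: the 671 genes with transcripts over 8000 bases, *Acaca* and *Acacb* included, had a median log2 fold change of 0.19 by TMM, and the 659 genes up to 1000 bases had -0.16. The part of transcript length in these values was not tested.

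*Me1* (ENSMUSG00000032418, chr9:86581371-86695953, minus strand) codes for cytosolic malic enzyme, which yields NADPH for fatty acid synthase. It had 205 counts in KO and 613 in WT, with FPKM of 2.77 (2.40 to 3.18) and 8.34 (7.69 to 9.02). Its log2 fold change of -0.99 (-1.22 to -0.76) was the lowest of the 8 and lay just inside 2-fold, with 10.0% of all genes lower. Total counts without the mitochondrial genes put it at -1.07, past 2-fold. *Me1* and *Fasn* kept nearly the same ratio, 0.223 and 0.251 *Me1* counts per *Fasn* count, and the ratio of ratios of 0.888 had an interval of 0.741 to 1.06. *Me1* is uncertain in the same respect, since 26.1% of its 51-base words recur in the pseudogenes *Gm7049* and *Gm7329*, which were not analysed here.

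*Thrsp* (ENSMUSG00000035686, chr7:97412938-97417730, minus strand) codes for Spot 14, a small protein of lipogenic tissues that rises with thyroid hormone and carbohydrate feeding. It had 574 counts in KO and 1263 in WT, with FPKM of 16.2 (14.9 to 17.6) and 35.8 (33.9 to 37.9). The log2 fold change was -0.55 (-0.69 to -0.40), with 20.9% of all genes lower. *Thrsp* was lower in the KO library by less than *Fasn*: the counts per *Fasn* count were 0.624 and 0.517, a ratio of ratios of 1.21 (1.06 to 1.37).

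**Figure D2:**
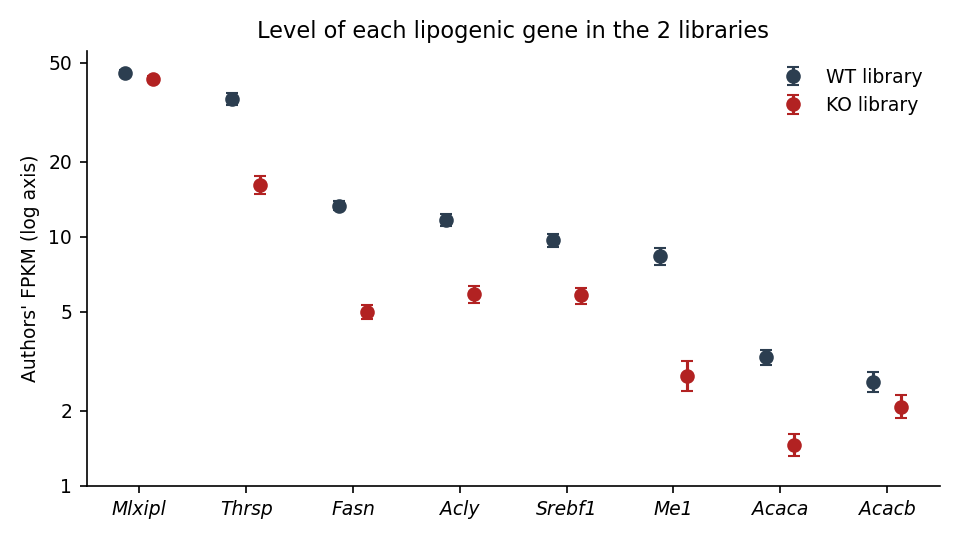
FPKM of the 8 genes in the KO and the WT library on a log axis, with 95% counting intervals, as the authors scaled them by total counts. *Mlxipl* stood at 43.1 and 45.5, *Thrsp* at 16.2 and 35.8, and the carboxylase genes *Acaca* and *Acacb* between 1.46 and 3.28 FPKM.

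Per unit of length, *Mlxipl* and *Thrsp* stood above the other 6 genes in both libraries. In the WT library the order of FPKM was *Mlxipl*, *Thrsp*, *Fasn*, *Acly*, *Srebf1*, *Me1*, *Acaca* and *Acacb*. In the KO library, by FPKM, *Fasn* came after *Acly* and *Srebf1*, and *Acacb* came before *Acaca*. The neighbours *Acly* and *Srebf1*, at 5.86 and 5.81 FPKM in the KO library, did not differ beyond counting error. The lengths behind the FPKM were longer than the merged annotated exons for all 8 genes, by 1.19 times in *Acaca* to 1.63 times in *Srebf1*. Counts per kilobase of the longest coding transcript gave *Mlxipl* and *Thrsp* the top 2 places in both libraries too, but neither change of order. On that scale *Fasn* came after *Acly* and *Srebf1* in WT as well, at 18.5 against 21.6 and 20.7, and *Acaca* and *Acacb* were level in KO, at 3.11 and 3.08.

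Shares of the pooled count of the 8 genes do not depend on how the libraries are scaled. That count was 8885 in KO and 13413 in WT. *Mlxipl* took 57.3% of it in KO (95% Clopper-Pearson interval 56.3% to 58.3%) and 39.8% in WT (39.0% to 40.6%). *Fasn* took 10.4% (9.73% to 11.0%) and 18.2% (17.6% to 18.9%), and *Me1* took 2.31% (2.01% to 2.64%) and 4.57% (4.22% to 4.94%). The shares of the other enzymes and of *Thrsp* were lower in the KO library except that of *Acacb*, at 4.04% (3.64% to 4.47%) and 3.35% (3.05% to 3.67%). The share of *Srebf1* was 7.97% (7.41% to 8.55%) and 8.73% (8.26% to 9.22%), with overlapping intervals. Because *Mlxipl* had the highest KO over WT value of the 8, each of the other 7 genes had to stand lower against it in the KO library. Only the size of the gap is informative. It ran from 0.351 times the WT ratio for *Me1* (0.297 to 0.413) and 0.395 times for *Fasn* (0.362 to 0.430) to 0.839 times for *Acacb* (0.724 to 0.971). The ratios to *Mlxipl*, apart from that of *Srebf1*, were chosen after the values were seen.

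**Figure D3:**
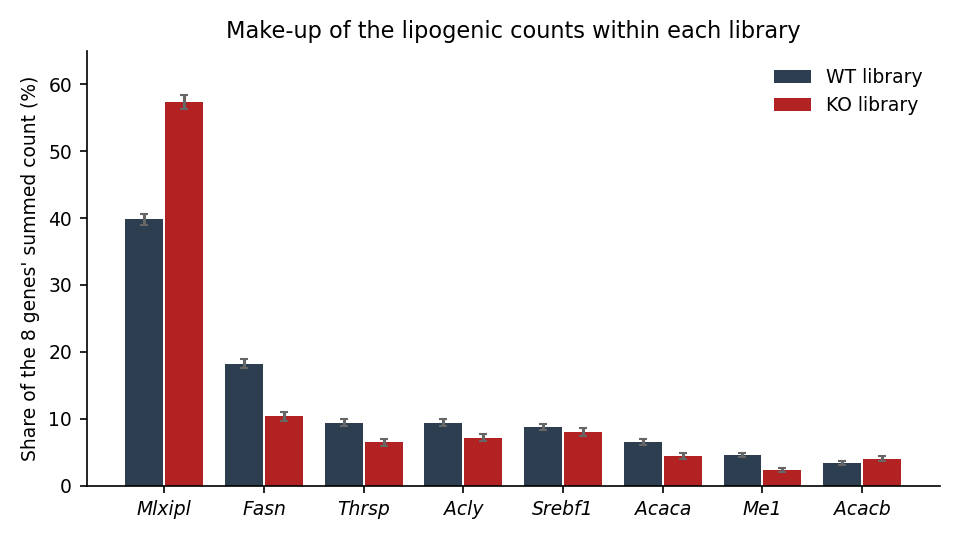
Share of the 8 genes' pooled count taken by each gene, in percent, in the KO and the WT library, with 95% Clopper-Pearson intervals. *Mlxipl* took 57.3% in KO and 39.8% in WT, and *Fasn* took 10.4% and 18.2%.

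The genes around these 8 were read from lists drawn up by role. Values between 0 and 0.60 by TMM lie below 0 by total counts, which lowers each gene by about the median shift given above. The 10 lists held 108 genes tested, *Acaca*, *Acacb* and *Fasn* among them. Of the 108, 9 were at least 2-fold higher and 11 at least 2-fold lower, near the background shares of 9.46% and 9.94% of all genes. The pooled counts were uneven: the clock list held 6 of the 9, and the list of palmitate use and triglyceride assembly held 5 of the 11. The supply of carbon and reductant showed no 2-fold change in 8 and 7 genes tested. The genes for acetyl-CoA and citrate supply had a median of -0.23, with *Mdh1*, cytosolic malate dehydrogenase, at 984 counts in KO and 2544 in WT (-0.78), *Cs*, citrate synthase, at -0.32 and *Pcx*, pyruvate carboxylase, at 0.04. The genes of cytosolic NADPH supply had a median of -0.36. Of these, *Tkt* and *Taldo1* of the pentose phosphate pathway stood at -0.49 and -0.36, and *Idh1*, cytosolic isocitrate dehydrogenase, at 0.16. *Idh1* was thus not lower by TMM, though it was by total counts.

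The sugar-handling genes, several of them targets of ChREBP, also showed no 2-fold change in 10 tested, and their median was 0.16 by TMM and -0.45 by total counts. *Gckr*, the glucokinase regulator, stood at 0.63 and *Tkfc*, triokinase, at 0.13. Of 18 partners and gatekeepers of the factors, 1 was at least 2-fold lower and none higher. That gene was *Mlx*, the obligate partner of ChREBP, with 64 counts in KO and 300 in WT, or -1.63 on the log2 scale (-2.05 to -1.24), while *Mlxipl* itself stood at 0.52. *Scap* and *Insig1*, which escort and retain the SREBP precursors, stood at 0.15 and 0.07. *Insig2*, which also retains them and is named here after its value was seen, had 353 and 1013 counts (-0.93, interval -1.11 to -0.75). *Rxra*, partner of the liver X receptors, stood at 0.16.

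Among 12 genes that act on acetyl-CoA carboxylase or malonyl-CoA, the median was 0.04. The 1 gene past 2-fold was *Mid1ip1*, a relative of Spot 14 that promotes carboxylase polymerisation, at 46 counts in KO and 148 in WT (-1.09, interval -1.60 to -0.61). *Stk11*, the kinase upstream of AMPK, stood at 0.82, *Cpt1a*, the palmitoyltransferase that malonyl-CoA inhibits, at 0.30, and *Btd*, biotinidase, at 0.34.

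Of the genes that use palmitate and assemble triglyceride, 14 of 16 lay below 0, as did 6778 of all 13561 genes tested, and their median was -0.58. At least 2-fold lower were 5 of the 16, against 9.94% of all genes, and 1 was at least 2-fold higher. Only 2 of the 5 had a counting interval wholly past 2-fold. *Scd1*, the stearoyl-CoA desaturase of liver, had 8833 counts in KO and 35900 in WT (-1.43), and its relative *Scd2* had 31 and 279 (-2.56). *Elovl6*, which lengthens palmitate, had 347 and 1176 (-1.17). *Pnpla3*, a lipid droplet acyltransferase and lipase known as a target of SREBP-1c, had 18 and 71 (-1.37, interval -2.22 to -0.63). *Cidec*, a lipid droplet protein, had 0 and 11 counts. That is at least 2.43-fold lower when 3 counts stand for the 0 and the WT count is taken as it is, and the interval that covers the error of both counts reached up to -0.74 on the log2 scale. *Lpin1*, a phosphatidate phosphatase that also acts in the nucleus, stood the other way, with 348 and 52 counts (3.32). *Fads1* and *Agpat2*, with many counts, stood at -0.78 and -0.13.

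The fatty acid biosynthesis pathway of the authors' KEGG annotation overlaps the 8 genes, holding *Acaca*, *Acacb* and *Fasn* among 9 tested, and had a median of -0.38. Among its long-chain acyl-CoA synthetases, *Acsl5* had 970 counts in KO and 3442 in WT (-1.23). *Acsl4* and *Acsl3*, named here after their values were seen, had 196 and 590 (-0.996) and 219 and 430 (-0.38). Of those tested only *Acsl1* lay above 0, with 691 and 327 (1.67).

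**Figure D4:**
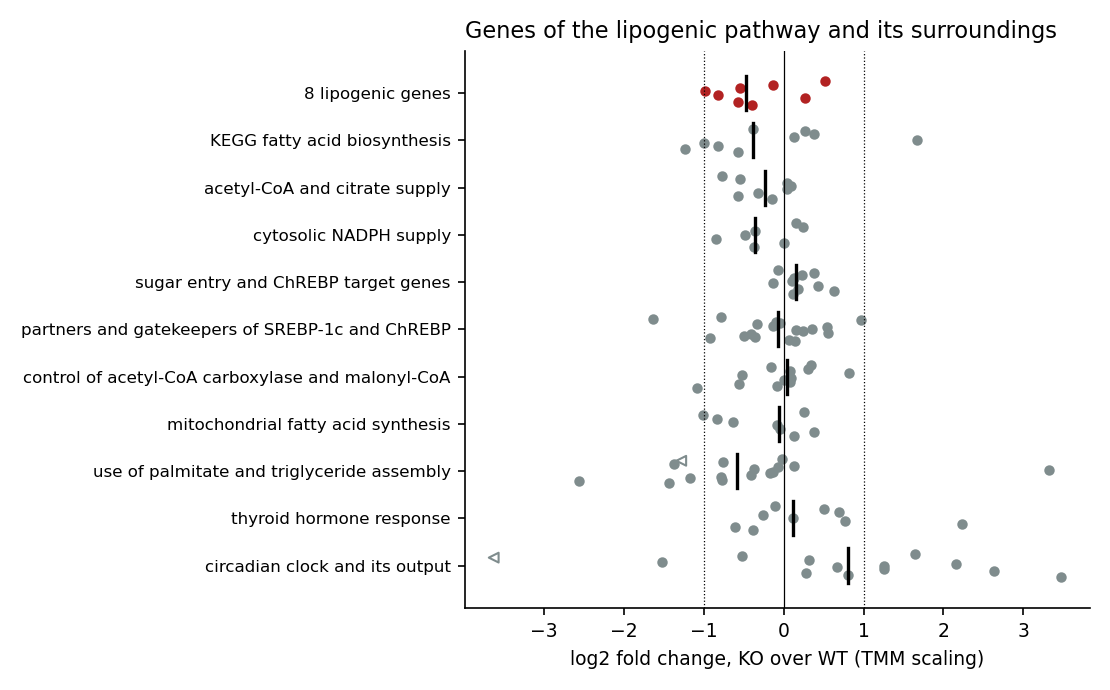
KO over WT log2 fold change (TMM) of each tested gene in the 10 lists and of the 8 lipogenic genes, with the median of each marked and dotted lines at 2-fold. Open triangles are *Cidec* and *Npas2*, drawn with 3 counts in place of their 0 and 2 in KO. The medians ran from -0.58 for the use of palmitate to 0.81 for the circadian clock, and the 8 lipogenic genes had -0.47.

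*Thrsp* and *Me1* are textbook thyroid hormone targets. The 9 genes of thyroid hormone response had a median of 0.11. The 1 past 2-fold, *Dio1*, the liver deiodinase and itself such a target, had 645 counts in KO and 206 in WT (2.24). *Ncor1*, a nuclear receptor corepressor, stood at 0.70. Lipogenic genes also follow the time of day and feeding. Of 13 clock genes, 6 were at least 2-fold higher and 2 at least 2-fold lower, against 9.46% and 9.94% of all genes. Among the higher, *Dbp* stood at 3.48 and *Nr1d1* at 2.64, and the lower were *Arntl* at -1.52 and *Npas2* with 2 and 56 counts. By total counts 4 of the 13 were at least 2-fold higher and 3 lower, against 4.6% and 26.6% of all genes. The part of thyroid hormone in the lipogenic values was not tested, nor was that of the clock difference.

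Hepatocyte markers summed to the same level by TMM (log2 fold change 0.00), though to a lower one by total counts, with 6 of the 7 measured within 2-fold and *Apob* lower at -2.96. *Alb* supplied 339876 of the 579652 counts in KO and 536544 of the 871274 in WT. Because TMM puts the middle of the table near 0, this sum says little of hepatocyte content. The adipocyte markers *Adipoq*, *Lep*, *Retn* and *Plin1* had 0 counts in both libraries, and the 7 adipocyte markers summed to 90 counts in KO and 222 in WT, nearly all *Fabp4*. The summed markers of stellate cells, Kupffer cells and endothelial cells were lower in the KO library by TMM, at -0.57, -0.46 and -0.32. At least 2-fold lower were 2 of 8, 2 of 6 and 1 of 5 genes, against 9.94% of all genes. The 2 of stellate cells, *Col1a1* and *Acta2*, both stood at -1.02, with intervals reaching up to -0.69 and -0.36. The summed markers of cholangiocytes were higher by TMM, at 0.38, and lower by total counts. At least 2-fold higher were 2 of 5, against 9.46% of all genes. Of the summed counts, however, *Spp1* supplied 1638 of 1759 in KO and 1875 of 2032 in WT. The 2 higher genes were *Krt7*, with 15 and 6 counts, and *Krt19*, with 26 and 7, and *Sox9* stood at -0.31. The part of these shifts in the lipogenic values was not tested.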

How the data were processed

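Liver poly(A) RNA of 1 miR-182 KO and 1 WT library was sequenced on Illumina HiSeq instruments. The authors deposited whole-number read counts per gene, not normalized, and FPKM, which the values show to be scaled by the total count with mitochondrial genes included. The submitters' processing notes name HISAT2 2.0.4, StringTie, edgeR and the human build hg38, although the identifiers and coordinates are those of mouse GRCm38. Columns of the authors' own comparison were not used.

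Genes needed 10 counts or more, both libraries added. Counts were scaled by TMM in edgeR 4.0.16 (R 4.3.3), with a prior count of 0.5, and a gene was counted as changed at 2-fold. No test was possible with 1 library per genotype. Intervals of log2 fold changes and of shares are exact 95% binomial intervals. Those of FPKM are exact 95% Poisson intervals of the count. Those of ratios of ratios are 95% conditional intervals of the odds ratio. FPKM were compared with a pseudocount of 0.1. Python 3.11.15, pandas 2.3.3, numpy 2.4.6, scipy 1.17.1 and matplotlib 3.10.9 were used. The recovery of TMM-scaled fold changes and the coverage of their intervals were tested on simulated counts. Those counts held no mitochondrial difference between the libraries, and the other steps were not simulated. The 8 genes and the lists were chosen with earlier results of these data known. Named genes are the 8, and in each list the genes past 2-fold with at least 10 counts in the higher library and the 3 genes with the most counts. Some genes that this rule names are not reported here. *Tf* among the hepatocyte markers and 1 gene of mitochondrial fatty acid synthesis were not matched by symbol. Protein sequences were not used here. Alternatives were scaling by total counts, by DESeq2 1.42.0 size factors and by the upper quartile, FPKM, a prior count of 5, other minimum counts, a 1.5-fold criterion and a criterion on the interval, and total counts without mitochondrial genes.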

Additional observations from a re-analysis of the deposited data

How the results depend on the processing

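No paired analysis was possible because KO and WT are 1 library each, and for the same reason no replicate could be left out. Under DESeq2's size factors and the upper quartile the 8 lipogenic genes kept their directions, as they did with a prior count of 5 and the other minimum counts. Under total counts and FPKM all 8 moved and *Acacb* and *Mlxipl* changed sign, to -0.33 and -0.08 by total counts. The median of the 8 was -1.07 by total counts and -1.05 by FPKM, and 4 of them were at least 2-fold lower by either. Without the mitochondrial genes 1 was, and at 1.5-fold 2 were.

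Over all genes, those higher and lower in the KO library numbered 624 and 3605 by total counts, 405 and 2934 by FPKM, 2269 and 2763 with a minimum of 1 count, 656 and 730 with a minimum of 50 counts, 490 and 425 when the whole interval had to pass 2-fold, and 2534 and 2625 at 1.5-fold. Of the 108 genes tested in the lists, 33 were lower by total counts, against 26.6% of all genes. At 1.5-fold 23 were lower and 16 higher, against 19.4% and 18.7% of all genes. By FPKM 31 of the 108 were lower, against 2934 of all 13561 genes, and by the interval 6 were, against 425 of the 13561. By summed FPKM in place of counts, *Mlxipl* took 52.4% of the 8 genes' total in KO and 34.9% in WT. Depth limits genes with few counts, such as *Cidec*, *Npas2* and *Pnpla3*, each with under 20 counts in the KO library.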

Other observations

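A separate fatty acid synthesis pathway in the mitochondrion, which makes the precursor of lipoic acid, had 8 genes tested, whose median log2 fold change was -0.06, against -0.47 for the 8 genes of the cytosolic pathway. *Lipt2*, a lipoyl transferase, was the 1 gene past 2-fold, with 30 counts in KO and 92 in WT (-1.01, counting interval -1.67 to -0.42). *Oxsm*, its ketoacyl synthase, and *Lias*, lipoic acid synthase, stood at 0.38 and 0.25, and *Ndufab1*, the acyl carrier protein, at -0.63. The difference between the pathways was not tested.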
